A study of Mus musculus with 24 samples.

Results

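The genes described here are 34 components of NF-κB and tumour necrosis factor (TNF) signalling, chosen by symbol from the 55376 genes of each count table. They are 5 NF-κB subunits, 7 inhibitors, TNF with its 2 receptors, and 10 adaptors and regulators of the receptor complex. The rest are 5 genes of kinases and a kinase scaffold (Ikbkg), and 4 target genes. The rule names the symbols and uses no measured value, but it was drawn up with earlier results of these data known. All 34 were found.

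Bulk mRNA-seq of sorted bone marrow cells gave 24 libraries from untreated male mice, either homozygous for TTPΔARE or wild-type (WT) littermates. TTPΔARE is a germline removal of the AU-rich element from the 3′ UTR of Zfp36, which stabilizes the mRNA of the RNA-binding protein tristetraprolin (TTP), so every cell of these mice carries it. Hematopoietic stem cells (HSCs, sorted as LSK CD34- Flk2- CD150+) came from young mice of 4 to 5 months (4 Y-WT and 4 Y-TTPΔARE libraries) and from middle-aged mice of 1 year (5 M-WT and 3 M-TTPΔARE), and multipotent progenitor 3 cells (MPP3, a granulocyte and monocyte biased progenitor) came from mice of the younger age (4 libraries of each genotype). The labels do not say whether each library is 1 animal, so p-values measure the spread between these libraries.

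NF-κB is a family of dimeric transcription factors held in the cytoplasm by IκB proteins. Binding of TNF to its receptors assembles TRADD, RIPK1, TRAF2 and the cIAP ubiquitin ligases, which activate the IKK kinases, and IKK marks IκB for degradation. The freed dimers switch on inflammatory and survival genes and also their own inhibitors, such as Nfkbia and Tnfaip3. TTP binds AU-rich elements in 3′ UTRs and speeds the decay of the mRNA, and Tnf is its best known target.

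Of the members, 8 hold the AU-rich nonamer TTATTTATT, written as DNA, in their longest annotated 3′ UTR, and sites from 7 of them are shown because this is the sequence that TTP is known to bind. Each is a site or cluster of sites from that UTR, 5′ to 3′ on the transcript strand, with nonamers in capitals and overlapping nonamers run together.
Tnf: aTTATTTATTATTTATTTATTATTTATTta
Birc3: TTATTTATTTATTtaaaagatTTATTTATT
Ikbkg: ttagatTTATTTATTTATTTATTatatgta
Ripk1: ctatctatTTATTTATTTATTttgtgtgca
Cflar: aatagaatTTATTTATTTATTaaatacatt
Nfkbia: ggaccacgttTTATTTATTgtgcttttgat
Rel: ctcccagactTTATTTATTttttttagctt
The sites lie on GRCm38 at chr17:35199679-35199708 (Tnf, minus strand), chr9:7857117-7857146 (Birc3, minus), chrX:74452556-74452585 (Ikbkg, plus), chr13:34035867-34035896 (Ripk1, plus), chr1:58755239-58755268 (Cflar, plus), chr12:55489607-55489636 (Nfkbia, minus) and chr11:23737833-23737862 (Rel, minus), all in annotated 3′ UTRs of GENCODE M21. Tnf holds 5 nonamers in all, 4 of them in the stretch shown, Birc3 and Ikbkg 3 each, Ripk1 and Cflar 2 each, and Nfkbia and Rel 1 each. The 8 members with the nonamer are 23.5% of the 34, whereas 7.66% of 21028 genes with a 3′ UTR hold the nonamer. The shorter pentamer ATTTA, which lies within each nonamer, was in 73.5% of members and 65.2% of genes. The median length of the 3′ UTR was 1309 bases among members and 960.5 bases among all genes, so the shares are not matched for length.

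Promoter sequence was given for 27 of the 34 members, as 250 bases before to 50 after the RefSeq start (GRCm38.p6). Of the 27, 11 (40.7%) held the κB consensus on either strand in at least 1 promoter, against 9.55% of 27025 genes. The consensus was GGGRNNYYCC, with R for A or G, Y for C or T and N for any base. The choice of members took in known NF-κB targets, so a higher share than among all genes is partly built in. The 11 were Nfkb2, Rel, Nfkbia, Nfkbie, Bcl3, Tnfaip3, Tnip1, Traf3, Tank, Sod2 and Tnfaip2. The 60 bases around the site are shown for 5 of the 11, with the κB match in capitals (overlapping matches run together). They were picked from those that passed an unadjusted p in a comparison described further on. Others that passed, such as Tank, Rel and Tnfaip2, are not shown.
Nfkbia: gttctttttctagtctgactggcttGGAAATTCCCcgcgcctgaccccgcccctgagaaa
Tnfaip3: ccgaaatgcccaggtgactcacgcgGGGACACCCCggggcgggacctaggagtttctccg
Bcl3: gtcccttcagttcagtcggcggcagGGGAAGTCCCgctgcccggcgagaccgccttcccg
Tnip1: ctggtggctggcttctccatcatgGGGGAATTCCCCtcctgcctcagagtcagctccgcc
Traf3: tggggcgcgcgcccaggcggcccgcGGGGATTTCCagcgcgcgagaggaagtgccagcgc
Their positions are chr12:55492642-55492701 (Nfkbia, minus strand), chr10:19015501-19015560 (Tnfaip3, minus), chr7:19822719-19822778 (Bcl3, minus), chr11:54962963-54963022 (Tnip1, minus) and chr12:111166335-111166394 (Traf3, plus). A match describes the letters and says nothing of binding in these cells.

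Counts per library summed to between 24261371 and 39934554 (median 34817620.5), and the 34 members took between 0.1803% and 0.2708% of them. Zfp36, the gene that carries the deletion, was higher in every TTPΔARE library than in every WT library of its comparison, and the test called it in middle-aged HSCs (adjusted p = 0.002) and MPP3 cells (0.000646) but not in young HSCs (log2 fold change 0.96, SE 0.21, adjusted p = 0.238). Its group means were 95.5 and 48.8 CPM, the read count scaled to library size, in young HSCs, 101.3 and 52.6 in middle-aged HSCs and 98.1 and 28.6 in MPP3 cells. All 11 HSC markers of a hand-written list had counts in every library. So did all 9 monocyte and macrophage markers, so the presence of counts does not tell cell types apart. Middle-aged HSCs, young HSCs and MPP3 cells have separate runs of library numbers in the titles, so age and cell type cannot be told apart from the library set. Y-WT HSC replicates 1 and 4 had summed CPM of 8 endothelial markers of 1112 and 1102, against 661.6 and 700.8 in the other pair, and Plvap, an endothelial fenestra protein, stood at 214.2 and 210.5 CPM against 43.2 and 50.3. The 12 dendritic cell markers summed to between 6446 and 10590 CPM in the Y-TTPΔARE MPP3 libraries and between 1020 and 1445 CPM in Y-WT MPP3. The study's own comparison of MPP3 cells left out a Y-TTPΔARE library that the sources used here do not name. Y-TTPΔARE MPP3 replicate 4 was far from the other 3 in Tab2 and Tnfrsf1b (values further on). Dixon's criterion did not mark it among the genes checked. Fits of many members in MPP3 cells are given with and without replicate 4, and the other MPP3 values include it. This choice rests on measured values of the members themselves, so the fits without it are no independent check. Replicate 4 need not be the library that the study left out.

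Per length of annotated exon, the best represented members were the same in HSCs of both ages. In Y-WT HSCs Nfkbia, which encodes IκBα, had the highest mean level, 109.7 ± 25.2 CPM per kb (SD, n = 4). Rela, the p65 subunit, followed at 52.1 ± 4.04, then the TNF receptors Tnfrsf1a at 48.6 ± 10.2 and Tnfrsf1b at 35.0 ± 3.22 CPM per kb. The spreads of Rela and Tnfrsf1a overlapped. Among the subunits Nfkb1 (11.5 CPM per kb) and Nfkb2 (10.9) were close to each other, and Relb (5.41) and Rel (3.25) were lower. Tnf was the lowest member in these cells at 0.567 ± 0.333 CPM per kb. Lengths are the union of exons of all transcripts in GENCODE M21, so a gene with long rarely used exons is placed too low. Across all 24 libraries 13 members varied by less than 2-fold in CPM, the narrowest being Nfkb1 (115.1 to 163.4 CPM) and Rela (126.4 to 180.4 CPM). Another 7 varied by 3-fold or more, led by Tnf at 88.8-fold and Vcam1 at 62.1-fold.

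**Figure D1:**
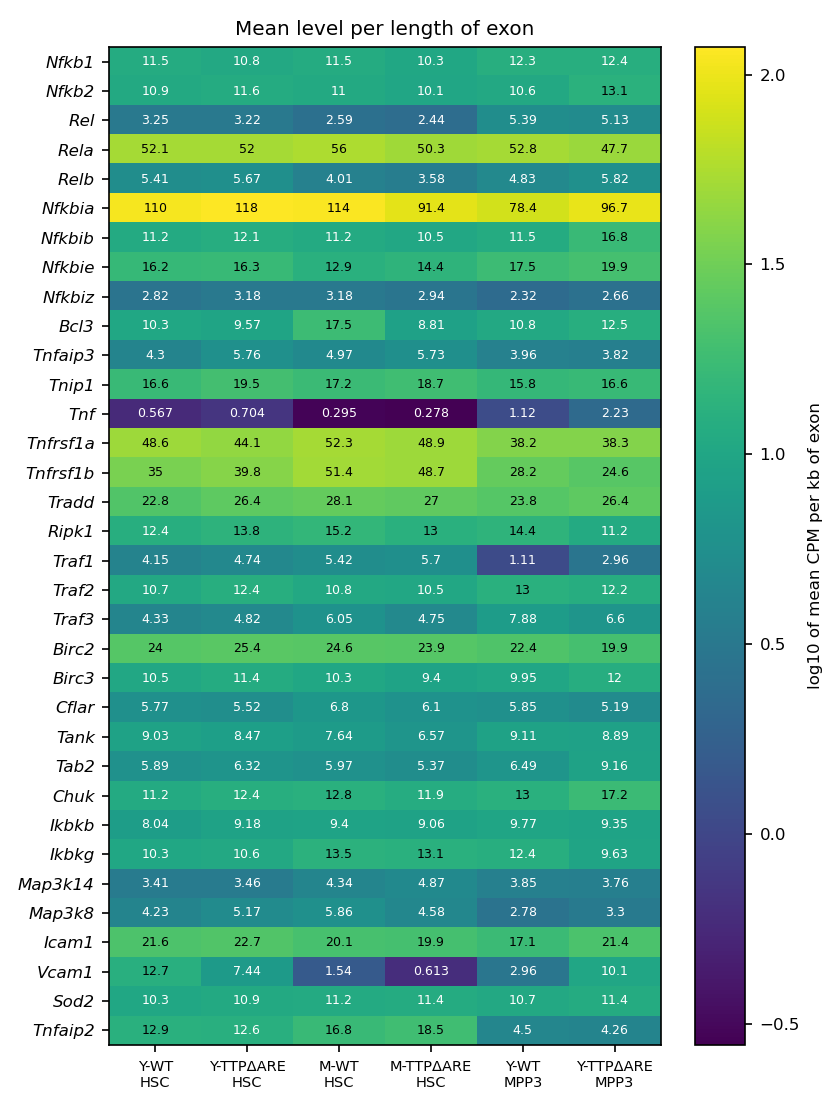
Mean CPM per kb of exon for each of the 34 members (rows, ordered by role) in the 6 groups (columns), printed in each cell and coloured on a log10 scale. Nfkbia and Rela are the highest rows, Tnf is the lowest row in every group but Y-WT MPP3, where Traf1 is just under Tnf, and the Vcam1 row changes most between groups.

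The first comparison asked whether TTPΔARE changes these genes in HSCs of young mice. In edgeR's quasi-likelihood test none of the 34 members was called, that is none had a adjusted p (Benjamini-Hochberg, over all genes tested) under 0.05 together with a change of more than 1.2-fold and a mean logCPM above 1.5. Of all genes over that logCPM limit, which 33 members pass (Tnf does not), 0.0435% were called. DESeq2 also called 0 members and 2.21% of the genes. At an unadjusted p under 0.05, 4 members were higher (11.8%, against 5.47% of the genes) and 0 were lower (against 4.79%). These 4, named after their values were seen, were Traf2, Ikbkb, Tnip1 and Tnfaip3, with log2 fold changes of 0.21, 0.18, 0.21 and 0.41. Markers of other cells moved with genotype here. The 8 erythroid markers summed to 124.6 to 401.6 CPM in Y-TTPΔARE and 46.6 to 56.3 in Y-WT (1 called higher). Most of that rise was Car1 (mean 153.9 against 14.4 CPM). Hbb-bt averaged 37.4 against 12.2, and Epor alone had a lower mean (16.2 against 17.7). The 9 T and NK cell markers summed to 112.5 to 225.2 CPM against 81.2 to 99.6 (0 called). The part of such cells in the members' values was not tested. In CPM the groups did not overlap for 1 member, Ikbkb, the IKKβ kinase (163.0 to 191.3 CPM in Y-TTPΔARE, 143.9 to 158.8 in Y-WT), against 5.19% of the genes.

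Tnfaip3 encodes A20, a deubiquitinase that ends NF-κB signalling. Its CPM was 47.4, 49.2, 39.6 and 30.2 in the Y-TTPΔARE HSC libraries and 35.9, 24.5, 32.8 and 31.3 in Y-WT. In CPM 3 of the 4 Y-TTPΔARE libraries lay above every Y-WT library, and the fourth lay inside their range (log2 fold change 0.41, SE 0.15, adjusted p = 0.555). Over all members the log2 fold change was above 0 in 24 and below 0 in 10, with a median of 0.086, and 58.4% of all genes over the logCPM limit were above 0, with a median of 0.029. Without Y-WT replicates 1 and 4, a choice made after seeing the data, 33 of 34 were above 0, with a median of 0.197 against 0.148 for all genes. With all libraries, all 5 genes of the kinase group, which includes the scaffold Ikbkg, had values above 0. They ran from 0.006 for Map3k14 to 0.28 for Map3k8. Vcam1 had the lowest value, -0.77 (SE 0.54, adjusted p = 0.719), and its libraries are given further on.

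In HSCs of middle-aged mice 1 member was called. Vcam1, an adhesion molecule and NF-κB target (chr3:116109949-116129688, minus strand), was lower in M-TTPΔARE (log2 fold change -1.31, SE 0.28, adjusted p = 0.0438). Among the genes 2.22% were called, so 1 of 34 (2.94%) is near that background. DESeq2 called 4 members, all lower, Vcam1, Nfkbia, Bcl3 and Traf3 (11.8%, against 6.23% of the genes). At an unadjusted p under 0.05, 8 members were lower (23.5%, against 11.9% of the genes) and 1, Tnfaip3, was higher (against 7.83%). The groups did not overlap in CPM for 8 members, all lower in M-TTPΔARE, against 13.2% of the genes in either direction. They were Rela, Nfkbia, Bcl3, Ripk1, Tank, Tab2, Map3k8 and Vcam1.

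Vcam1 stood at 6.00, 3.30 and 7.02 CPM in the M-TTPΔARE HSC libraries. In M-WT it stood at 8.90, 20.2, 13.4, 13.8 and 12.1 CPM. The groups did not overlap, and the gap between the highest M-TTPΔARE and the lowest M-WT library was small beside the spread within M-WT. The call held without M-WT replicate 1. Without M-WT replicate 2, 3, 4 or 5 the adjusted p was 0.056, 0.0722, 0.0593 and 0.0612, and without M-TTPΔARE replicate 1, 2 or 3 it was 0.122, 0.133 and 0.0971, with log2 fold changes from -1.52 to -1.06. The sum of the 8 endothelial markers moved the same way, with 0 of them called. It was 710.1 to 742.5 CPM in M-TTPΔARE and 773.9 to 846.5 in M-WT, with none of the 8 at 0 in every library. The list was not uniform. Plvap stood at 0.929 to 5.45 CPM against 5.99 to 15.1, and Esam averaged 204.5 against 251.0. Kdr (33.2 against 33.8) and Pecam1 (67.7 against 69.1) hardly differed, and Emcn was higher in M-TTPΔARE (45.5 against 38.6). The 9 monocyte and macrophage markers summed to 426.3 to 439.3 CPM against 431.7 to 502.0. The part of such cells in the difference was not tested, and in bulk samples fewer cells of a type and less RNA per cell cannot be told apart.

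Some myeloid progenitor markers also differed in middle-aged HSCs. The 10 on the list summed to 369.6 to 395.4 CPM in M-TTPΔARE and 525.2 to 670.3 in M-WT, with 2 called lower. Only 3 of the 10 passed the logCPM limit. The sum was mostly Prtn3 (mean 168.7 against 224.4 CPM), Csf3r (90.8 against 163.7) and Cd34 (118.9 against 201.8). Near the floor, Cebpa, Cd48, Fcgr3 and Ms4a3 had higher means in M-TTPΔARE. Of 6 plasma cell markers 1 was called lower. Their part in the falls of the members was not tested. Nfkbia and Bcl3, named after their values were seen, came next. Nfkbia (IκBα, chr12:55489410-55492647, minus strand) stood at 136.7, 140.3 and 164.4 CPM in M-TTPΔARE. In M-WT it stood at 194.3, 200.6, 175.1, 178.3 and 173.0 CPM. Every M-WT library was above every M-TTPΔARE library, and the adjusted p was 0.0505 (log2 fold change -0.30, SE 0.07). Bcl3, a nuclear IκB protein that works with p50 and p52 dimers, stood at 20.9, 26.1 and 18.5 CPM in M-TTPΔARE and at 42.0, 43.6, 65.7, 30.7 and 34.8 in M-WT. These groups did not overlap either (log2 fold change -0.96, SE 0.22, adjusted p = 0.0571), and Bcl3 was called when M-WT replicate 3 or 4 was left out.

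Nfkb1, the gene of p105 and p50 (chr3:135584655-135691547, minus strand), showed no call in any genotype comparison. It stood at 118.2, 120.9 and 134.4 CPM in M-TTPΔARE HSCs and at 150.7, 131.2, 138.6, 135.8 and 134.7 in M-WT (log2 fold change -0.12, SE 0.06, adjusted p = 0.326). In young HSCs it stood at 143.0, 115.1, 131.9 and 131.9 CPM in Y-TTPΔARE and at 139.5, 149.8, 131.1 and 133.6 in Y-WT (-0.10, SE 0.08, adjusted p = 0.723). In MPP3 cells the values were 146.4, 155.1, 148.1 and 147.9 CPM in Y-TTPΔARE and 122.8, 160.0, 149.1 and 163.4 in Y-WT (0.04, SE 0.11, adjusted p = 0.909, and 0.04, adjusted p = 0.989, without replicate 4). The groups overlapped in all 3 comparisons. The other subunits had log2 fold changes between -0.13 and 0.32 in these comparisons with all libraries. Without replicate 4 Nfkb2 and Relb were both at 0.43 in MPP3 cells (adjusted p = 0.414 and 0.403).

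Over all members in middle-aged HSCs, 26 log2 fold changes were below 0 and 8 above, with a median of -0.073, and 41.5% of all genes were above 0, with a median of -0.031. All 5 subunits were below 0 (-0.13 to -0.06), as were 9 of the 10 adaptors and regulators. The members above 0 included Tnfaip3 (0.23), its partner Tnip1 (0.15) and Nfkbie (0.18), which encodes IκBε. The largest change apart from Vcam1 and Bcl3 was Map3k8, the TPL2 kinase, at -0.33 (SE 0.11, adjusted p = 0.185).

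**Figure D2:**
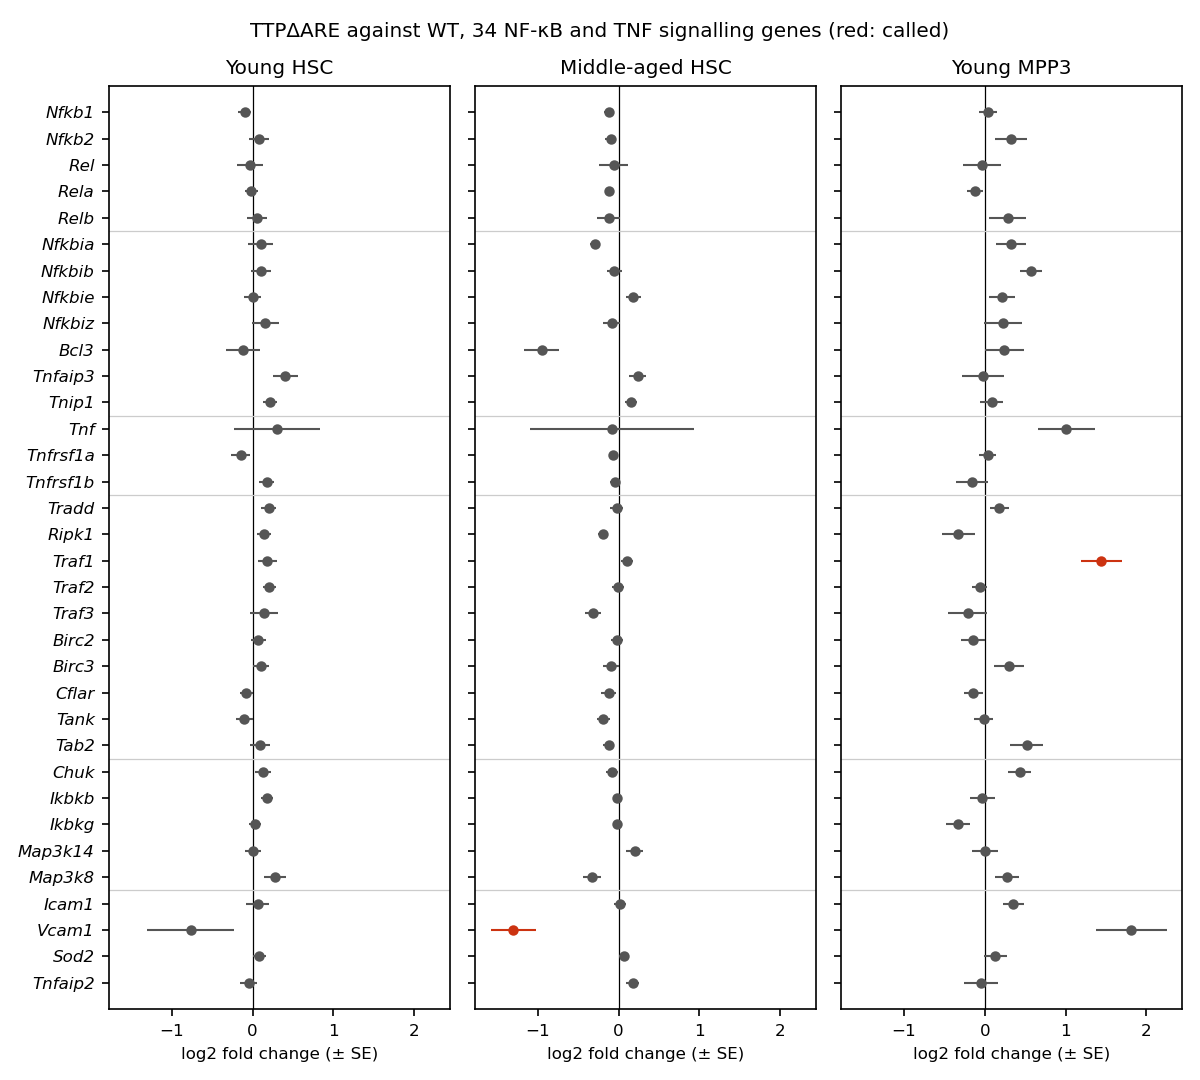
Log2 fold change of TTPΔARE against WT (points, with standard errors as bars) for the 34 members in order of role, in HSCs of both ages and in MPP3 cells on 1 shared axis, with called members in red. No member is called in young HSCs, Vcam1 at -1.31 is the called member in middle-aged HSCs, and Traf1 at 1.44 is the called member in MPP3 cells.

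In MPP3 cells of young mice 1 member was called. Traf1, a TNF receptor-associated adaptor that is itself an NF-κB target (chr2:34941750-34961772, minus strand), was higher in Y-TTPΔARE (log2 fold change 1.44, SE 0.25, adjusted p = 0.0164), a 2.72-fold difference. A share of 1 in 34 (2.94%) is near the 2.54% of all genes called. DESeq2 called 3 members, all higher, Traf1, Vcam1 and Nfkbib (8.82%, against 5.96% of the genes). At an unadjusted p under 0.05, 6 members over the logCPM limit were higher, Traf1, Nfkbib, Vcam1, Chuk, Icam1 and Tab2 (17.6%, against 8.98%), and 0 were lower (against 6.18%). Without replicate 4 of Y-TTPΔARE the test again called Traf1 alone (log2 fold change 1.58, SE 0.22, adjusted p = 0.00814), with 2.70% of the genes called. At an unadjusted p, 10 members were then higher (29.4%, against 8.70%) and 1, Ikbkg, was lower (against 7.90%).

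Traf1 stood at 35.7, 23.6, 27.4 and 17.6 CPM in the Y-TTPΔARE MPP3 libraries. In Y-WT MPP3 it stood at 13.2, 7.61, 8.42 and 9.89 CPM. Every Y-TTPΔARE library was above every Y-WT library, and the groups did not overlap. The call was lost without Y-WT replicate 2, 3 or 4 (adjusted p = 0.0631, 0.0658 and 0.0627) or without Y-TTPΔARE replicate 1 (0.0635), with log2 fold changes from 1.27 to 1.62. In HSCs Traf1 was higher than in either MPP3 group on average, and the genotypes overlapped. It stood at 50.4, 44.5, 36.0 and 36.5 CPM in Y-TTPΔARE HSCs and at 38.1, 31.8, 35.3 and 41.3 in Y-WT. It stood at 47.2, 52.6 and 50.9 CPM in M-TTPΔARE HSCs and at 51.8, 52.5, 42.7, 46.4 and 45.6 in M-WT.

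Dendritic cell markers moved with Traf1 in MPP3 cells. Of the 12 on the list 9 were called higher in Y-TTPΔARE MPP3 and none lower, and none was at 0 in every library of a group. The invariant chain Cd74 averaged 3256 CPM in Y-TTPΔARE against 347.9 in Y-WT, and Batf3, a factor of cross-presenting dendritic cells, 14.9 against 0.379. Of the 9 monocyte and macrophage markers 3 were called higher, and their sum was 877.7 to 1323 CPM against 475.6 to 570.1. The 8 erythroid markers summed to 53.5 to 184.8 CPM against 13.5 to 32.1, with 2 called higher. Called higher too were 2 of 10 myeloid progenitor markers, 1 of 8 B cell markers and 1 of 9 T and NK cell markers. The sums of these last lists overlapped between the genotypes. Within Y-TTPΔARE MPP3, replicate 4 had the highest dendritic sum (10590 CPM) and the lowest Traf1 (17.6 CPM), and replicate 1 had a sum of 9599 and the highest Traf1 (35.7). The part of such cells in the Traf1 difference was not tested.

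Vcam1 in MPP3 cells stood at 71.0, 112.0, 84.7 and 89.2 CPM in Y-TTPΔARE. In Y-WT it stood at 18.5, 11.3, 17.5 and 57.8 CPM. The groups did not overlap, and Y-WT replicate 4 lay well above the other Y-WT libraries. The quasi-likelihood test did not call it (log2 fold change 1.81, SE 0.44, adjusted p = 0.0818, and 1.80, adjusted p = 0.14, without Y-TTPΔARE replicate 4), and without Y-WT replicate 4 it did (2.51, adjusted p = 0.00161). The endothelial sum was lower in Y-TTPΔARE here, 235.3 to 273.3 CPM against 343.5 to 384.2 in Y-WT, but its markers were divided. Tie1 (mean 77.6 against 127.1 CPM), Esam, Tek, Pecam1 and Emcn were lower, with 2 markers called. Plvap stood higher at 3.73 to 5.34 against 1.35 to 2.58 CPM. Kdr (mean 4.08 against 0.367) and Cdh5 (0.546 against 0.258) were higher too, at low levels. The dendritic, monocyte and erythroid sums given for Traf1 were higher beside Vcam1 too, and their part in its difference was not tested. In young HSCs Vcam1 stood at 61.0, 86.0, 60.1 and 56.7 CPM in Y-TTPΔARE. In Y-WT HSCs it stood at 205.2, 31.3, 34.7 and 178.2 CPM, high in replicates 1 and 4, the pair with high endothelial markers. Without these 2 libraries, left out after seeing the data, the log2 fold change turned from -0.77 to 1.06 (adjusted p = 0.1), and no member was called.

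**Figure D3:**
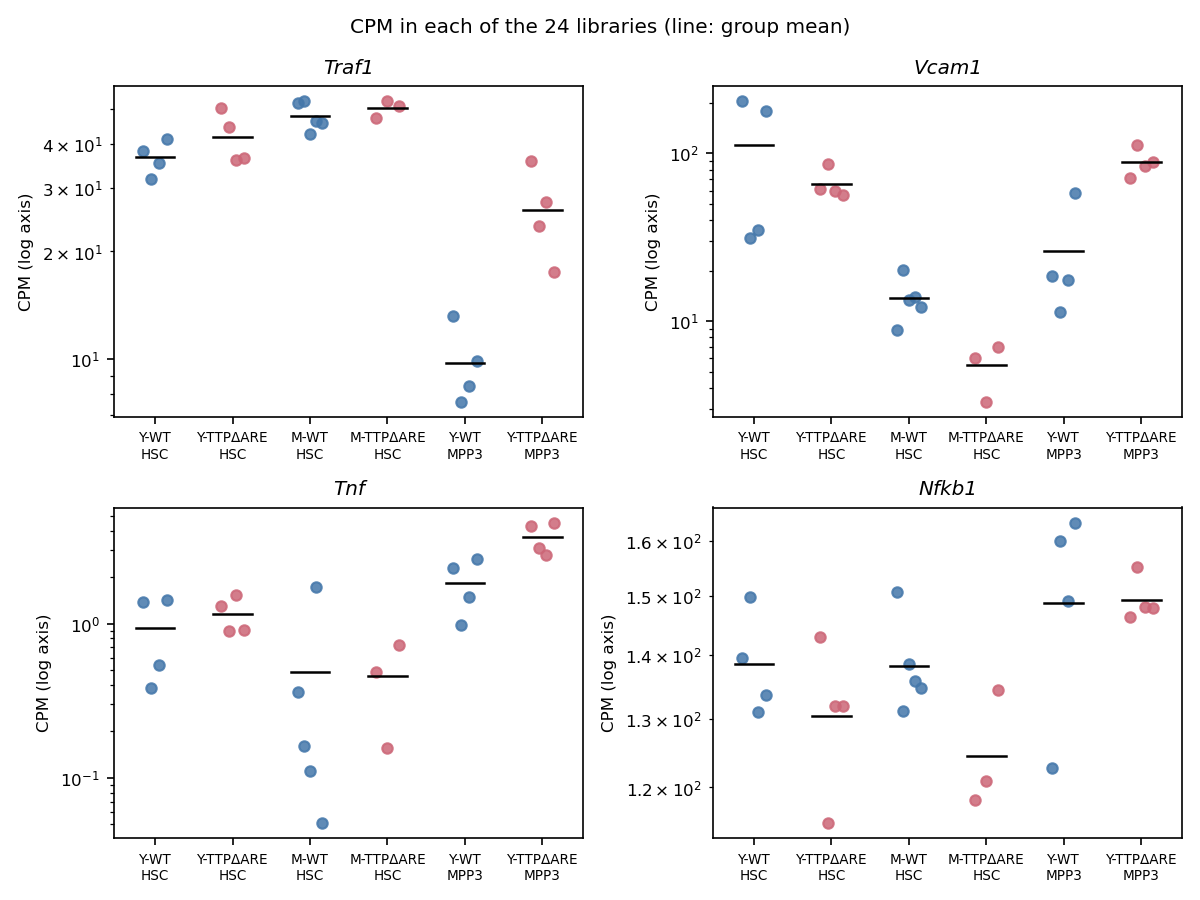
CPM of Traf1, Vcam1, Tnf and Nfkb1 in each of the 24 libraries (points) with group means (lines) on log axes, WT in blue and TTPΔARE in red. Traf1 is lowest in Y-WT MPP3 at 7.61 to 13.2 CPM, Vcam1 in Y-WT HSCs splits into libraries at 31.3 and 34.7 and at 178.2 and 205.2 CPM, and Nfkb1 stays between 115.1 and 163.4 CPM.

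**Figure D4:**
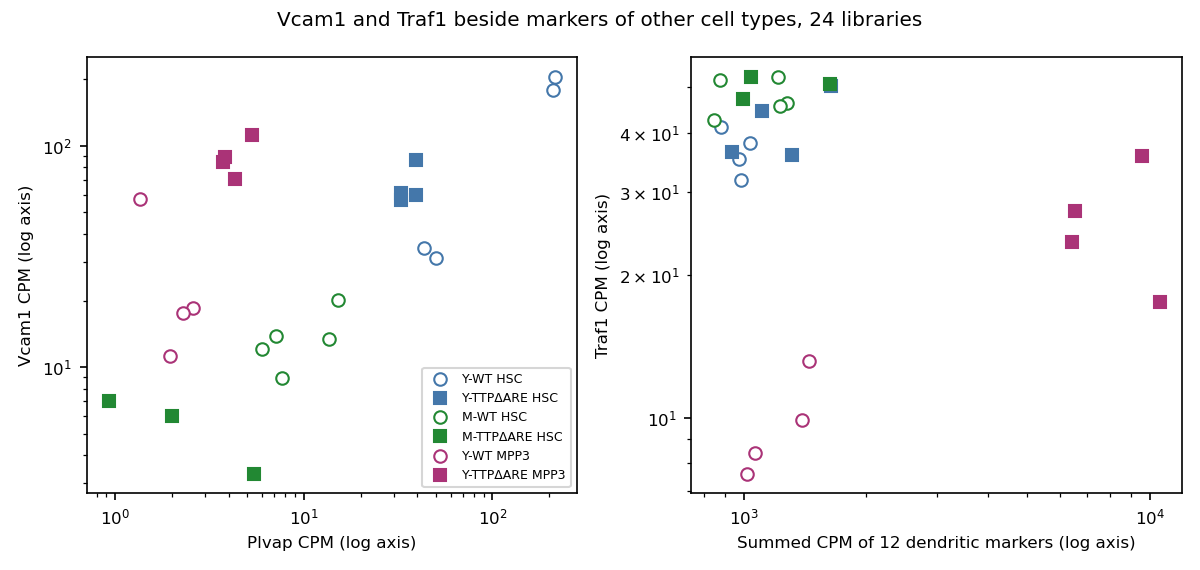
Left, Vcam1 CPM against Plvap CPM; right, Traf1 CPM against the summed CPM of 12 dendritic markers, in the 24 libraries on log axes, with WT as open circles and TTPΔARE as filled squares. Y-WT HSC replicates 1 and 4 are the highest in both Vcam1 and Plvap, Y-TTPΔARE MPP3 libraries have high Vcam1 at Plvap of 3.73 to 5.34 CPM, and the dendritic sum parts the MPP3 genotypes.

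Tnf, the ligand and a classical TTP target, was rare in every library (chr17:35199381-35202007, minus strand). In MPP3 cells it stood at 4.27, 3.07, 2.80 and 4.51 CPM in Y-TTPΔARE, from 131, 100, 87 and 129 counts. In Y-WT MPP3 it stood at 2.29, 0.974, 1.49 and 2.62 CPM, from 72, 32, 50 and 93 counts. The groups did not overlap, as for Traf1 and Vcam1 (3 members, 8.82%, against 8.69% of genes over the logCPM limit, which Tnf itself does not reach). The log2 fold change of 1.01 (SE 0.35) did not pass the test (adjusted p = 0.263, and 0.89, adjusted p = 0.386, without replicate 4). In young HSCs it stood at 1.29, 0.898, 1.52 and 0.902 CPM in Y-TTPΔARE and at 1.38, 0.382, 0.537 and 1.42 in Y-WT (0.30, SE 0.53, adjusted p = 0.837). In middle-aged HSCs it stood at 0.485, 0.157 and 0.725 CPM in M-TTPΔARE and at 0.362, 0.160, 0.110, 1.74 and 0.0508 in M-WT, where the lowest library held 2 counts. The genotypes overlapped at both ages, and the value in middle-aged HSCs (-0.08, SE 1.01, adjusted p = 0.98) turned to 1.43 without M-WT replicate 4. Counting error alone is wide at these counts.

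The TNF receptors did not pass the test in any genotype comparison. Tnfrsf1a, the death domain receptor, had log2 fold changes of -0.15, -0.07 and 0.04 in young HSCs, middle-aged HSCs and MPP3 cells, the last at -0.04 without replicate 4. Tnfrsf1b, the receptor without a death domain, had 0.17, -0.05 and -0.16. In MPP3 cells its CPM was 108.4, 115.0, 97.8 and 55.2 in Y-TTPΔARE, with replicate 4 low, and 99.97 to 115.1 in Y-WT, and without that replicate the difference was 0.01 (SE 0.08).

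Of the 7 inhibitors, 6 had log2 fold changes above 0 in MPP3 cells, and none was called. The other, Tnfaip3, was at -0.02, and at 0.14 without replicate 4. Nfkbib, which encodes IκBβ, stood at 43.9, 34.7, 26.8 and 40.5 CPM in Y-TTPΔARE and at 24.2, 29.2, 21.7 and 24.7 in Y-WT. Again 3 of the 4 Y-TTPΔARE libraries were above every Y-WT library (log2 fold change 0.57, SE 0.14, adjusted p = 0.0762), and Nfkbib was called when replicate 3 was left out. Without replicate 4 its value was 0.51 (adjusted p = 0.146). Nfkbia was at 0.32 (SE 0.19, adjusted p = 0.522, and 0.35, adjusted p = 0.584, without replicate 4), and its CPM in Y-TTPΔARE was 181.1, 182.0, 115.6 and 144.1 against 166.8, 107.5, 100.9 and 129.9 in Y-WT. The groups overlapped.

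The kinase subunits of IKK were not called in MPP3 cells. Chuk (IKKα) had a log2 fold change of 0.43 (SE 0.15, adjusted p = 0.25) and Ikbkb (IKKβ) of -0.03 (SE 0.16, adjusted p = 0.955), and the difference between them was not tested. Without replicate 4 they were at 0.51 (adjusted p = 0.116) and 0.08 (adjusted p = 0.947). Icam1, an adhesion molecule induced by NF-κB, was at 0.36 (SE 0.13, adjusted p = 0.281), and at 0.41 (adjusted p = 0.135) without replicate 4. Tab2, which links TAK1 to ubiquitin chains, stood at 53.2, 48.6, 37.8 and 85.3 CPM in Y-TTPΔARE and 35.9 to 43.5 in Y-WT, and its log2 fold change was 0.52 with replicate 4 and 0.24 without it. Over all members 21 values were above 0 and 13 below, with a median of 0.11 against -0.002 for all genes over the logCPM limit. Without replicate 4, 24 were above 0 and 10 below, with a median of 0.152 against -0.021. Without Y-TTPΔARE replicate 1, 2 or 3 instead, the members' median was 0.082, 0.066 and 0.144, against -0.026, -0.019 and 0.007.

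An interaction term set the genotype effect in HSCs of the 2 ages, and then in the 2 cell types, against each other. No member was called for age (0.0439% of the genes were), and DESeq2 called 0 as well (against 1.17%). At an unadjusted p, 9 members had a lower effect in middle-aged than in young HSCs (26.5%, against 12.2%) and 0 a higher one (against 2.87%). The 9 were Nfkbia, Bcl3, Tnfrsf1b, Tradd, Ripk1, Traf2, Traf3, Ikbkb and Map3k8, and the smallest adjusted p was 0.224, for Ripk1, the kinase of the TNF receptor complex (difference -0.38, SE 0.10). In CPM Ripk1 stood at 100.8 to 112.7 in M-TTPΔARE and 120.8 to 134.8 in M-WT, and at 103.9 to 130.7 in Y-TTPΔARE and 96.8 to 106.5 in Y-WT. Of the 34 differences, 30 were below 0 with a median of -0.22, and among all genes 29.6% were above 0 with a median of -0.107.

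For cell type no member was called in the quasi-likelihood test (0.839% of the genes were). DESeq2 called 1, Traf1 (2.94%, against 2.47%), whose genotype effect was 1.15 higher on the log2 scale in MPP3 cells than in HSCs (SE 0.29, adjusted p = 0.104 in the quasi-likelihood test). At an unadjusted p, 2 members had a higher effect in MPP3 cells, Traf1 and Vcam1 (5.88%, against 3.85%), and 3 a lower one, Ripk1, Traf2 and Ikbkg (8.82%, against 13.6%). The Vcam1 difference was 2.55 (SE 0.80, adjusted p = 0.226) and takes in the 2 Y-WT HSC libraries with high endothelial markers. The interactions with age and with cell type share the young HSC libraries.

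MPP3 cells and HSCs of young WT mice were compared next. In MPP3 cells 3 members were called higher (8.82%, against 24.7% of the genes) and 3 lower (8.82%, against 13.1%). DESeq2 called 2 higher (5.88%, against 26.0%) and 8 lower (23.5%, against 17.4%), so the share called lower lay below that of all genes in the first test and above it in DESeq2. Without Y-WT HSC replicate 1 the split was 7 higher and 2 lower. Traf3, an adaptor that restrains non-canonical NF-κB signalling, rose from 25.4 to 38.6 CPM in HSCs to 48.8 to 71.0 in MPP3 cells (log2 fold change 0.89, SE 0.15, adjusted p = 0.00274). Rel, the c-Rel subunit, rose by 0.76 (SE 0.14, adjusted p = 0.0045), from a range of 20.4 to 29.2 CPM to 35.7 to 51.5. Ikbkb was 0.31 higher (SE 0.08, adjusted p = 0.023), and this call was lost with DESeq2, the likelihood ratio test, RLE scaling, no filter, a replicate block and without Y-WT MPP3 replicate 2. RLE scaling gave 2 members higher and 4 lower.

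The members lower in MPP3 cells were Traf1, Tnfaip2 and Map3k8. Traf1 stood at 7.61 to 13.2 CPM against 31.8 to 41.3 in HSCs (log2 fold change -1.87, SE 0.19, adjusted p = 0.00017). Tnfaip2, a TNF-induced gene, stood at 18.7 to 28.8 CPM against 55.1 to 74.8 (-1.50, SE 0.14, adjusted p = 9.88e-05). For Map3k8 the difference was -0.58 (SE 0.18, adjusted p = 0.0368), a call that was lost without Y-WT HSC replicate 1 or 4 or Y-WT MPP3 replicate 2, 3 or 4 (adjusted p up to 0.141). No range of these 3 overlapped between the cell types. Vcam1 had the largest difference, -2.12 (SE 0.73, adjusted p = 0.0629), and was not called, with Y-WT HSC libraries spread from 31.3 to 205.2 CPM. Without Y-WT HSC replicates 1 and 4 its difference was -0.31 (SE 0.55). The number of members called was 12 without Y-WT HSC replicate 2 and 10 without Y-WT MPP3 replicate 4.

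Middle-aged and young HSCs of WT mice differed in 9 members, 6 higher in M-WT (17.6%, against 13.7% of the genes) and 3 lower (8.82%, against 6.03%). Tnfrsf1b rose most clearly. It stood at 207.8, 202.7, 192.1, 186.2 and 192.2 CPM in M-WT and at 146.3, 117.6, 131.1 and 139.3 in Y-WT, without overlap (log2 fold change 0.51, SE 0.07, adjusted p = 0.000805). Ikbkg, which encodes the IKK scaffold NEMO, stood at 99.6 to 116.2 CPM against 80.3 to 92.3 (0.35, SE 0.06, adjusted p = 0.00348). Map3k8 (0.43), Bcl3 (0.72), Traf1 (0.34) and Tnfaip2 (0.34) were the others called higher, with adjusted p between 0.0221 and 0.0351. Their ranges did not overlap between the ages.

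Vcam1 fell with age by 3.07 on the log2 scale (SE 0.54, adjusted p = 0.00403). It stood at 8.90 to 20.2 CPM in M-WT against 31.3 to 205.2 in Y-WT, and Plvap stood at 5.99 to 15.1 against 43.2 to 214.2 CPM. Without Y-WT replicates 1 and 4, left out after seeing the data, the fall was smaller and still called (-1.32, SE 0.24, adjusted p = 0.00754). Plvap in Y-WT replicates 2 and 3 stood at 50.3 and 43.2 CPM, still above every M-WT library. The part of endothelial cells in the fall was not tested. Relb, the subunit of non-canonical dimers with p52, stood at 14.3 to 17.4 CPM in M-WT and 19.2 to 23.4 in Y-WT (-0.48, SE 0.10, adjusted p = 0.00771). Nfkbie was at -0.36 (SE 0.10, adjusted p = 0.0291), and its ranges overlapped. Ripk1 (0.25) and Tradd (0.26) passed the adjusted p but not the fold limit. The count of members called was 5 without Y-WT replicate 2 or without Y-WT replicate 3. Either omission ended the calls of Traf1, Bcl3, Map3k8 and Tnfaip2, whose adjusted p then reached 0.0825, 0.0647, 0.0666 and 0.0987. Traf1 and Tnfaip2 were also lost without M-WT replicate 1 or 2, Tnfaip2 without M-WT replicate 3, and Nfkbie without M-WT replicate 1, 2 or 5 or Y-WT replicate 3 or 4. Tnfrsf1b, Ikbkg, Vcam1 and Relb were called with every library left out in turn.

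**Figure D5:**
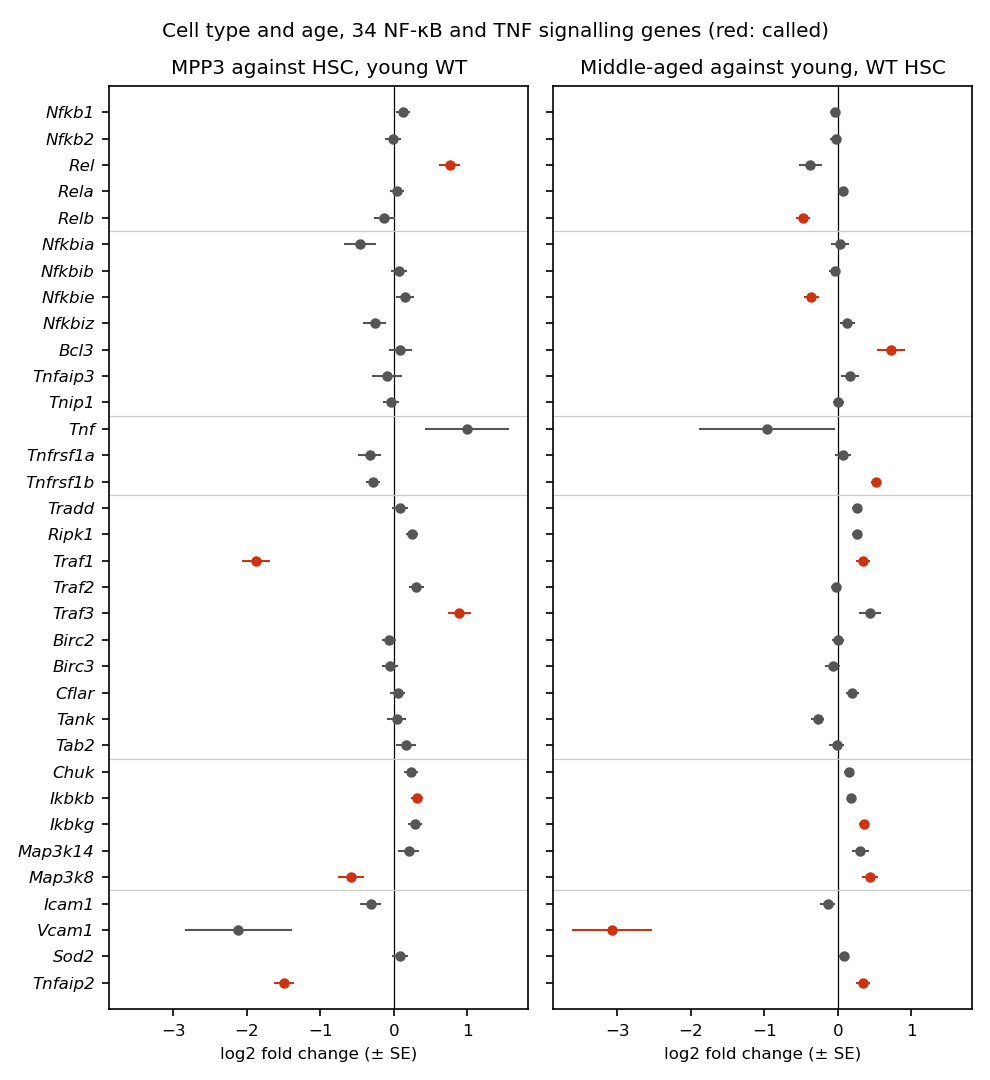
Log2 fold change of Y-WT MPP3 against Y-WT HSCs and of M-WT against Y-WT HSCs (points, with standard errors as bars) for the 34 members in order of role on 1 shared axis, with called members in red. Rel, Traf3 and Ikbkb are called higher and Traf1, Map3k8 and Tnfaip2 lower in MPP3 cells, and Vcam1 at -3.07 has the largest difference with age.

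Members with and without the AU-rich nonamer were set side by side. Of the 8 with the nonamer the quasi-likelihood test called none by genotype. Their median log2 fold changes were 0.102 in young HSCs, -0.091 in middle-aged HSCs and -0.029 in MPP3 cells. Of the 26 without it Vcam1 and Traf1 were called, and the medians were 0.078, -0.062 and 0.156. Of all genes 0.0435%, 2.22% and 2.54% were called. DESeq2 also called Nfkbia, which holds the nonamer, lower in middle-aged HSCs (adjusted p = 0.00112). Its other calls, Vcam1, Bcl3 and Traf3 there and Traf1, Vcam1 and Nfkbib in MPP3 cells, lack the nonamer. Among the nonamer members the values in MPP3 cells ran from -0.33 for Ikbkg, which has 3 nonamers, and Ripk1, which has 2, to 1.01 for Tnf, which has 5. Without replicate 4 Ikbkg was at -0.22, Ripk1 at -0.16 and Tnf at 0.89, and the medians given here include that replicate. The 11 members with a κB match in the promoter had medians of 0.074, -0.06 and 0.088, and the 16 with a promoter but no match had 0.097, -0.062 and 0.019. Vcam1 has no entry in the promoter table, and Traf1 has an entry without a match.

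Other genes of the pathway were counted from 4 lists that hold none of the 34 members. Of all genes over the logCPM limit 0.0435%, 2.22% and 2.54% were called by genotype in young HSCs, middle-aged HSCs and MPP3 cells. Of 17 genes of the TNF receptor complex (such as Fadd, Casp8 and the LUBAC subunits) 0 were called in the genotype comparisons, with medians of 0.025, -0.033 and 0.013 in young HSCs, middle-aged HSCs and MPP3 cells. Among 24 other NF-κB signalling genes Tnip3, which encodes an A20-binding protein, was called higher in M-TTPΔARE HSCs, at 204.3 ± 7.26 CPM against 157.2 ± 15.2 (SD, n = 3 and 5, adjusted p = 0.0254). Of 30 TNF family ligands and receptors 20 passed the logCPM limit in middle-aged HSCs. Among these 1 was called, Tnfrsf25, higher in M-TTPΔARE (log2 fold change 1.03, SE 0.16, adjusted p = 0.0115). In MPP3 cells 17 of the 30 passed the limit and 1 was called, Cd40, a costimulatory receptor of antigen-presenting cells. Its level was 9.24 ± 4.30 CPM in Y-TTPΔARE against 0.949 ± 0.537 in Y-WT (SD, n = 4 each, adjusted p = 0.00624).

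Of 39 other NF-κB targets 24, 21 and 25 passed the logCPM limit in young HSCs, middle-aged HSCs and MPP3 cells. Of these 1 was called in young HSCs (against 0.0435% of the genes), 4 in middle-aged HSCs (2 higher, 2 lower, against 2.22%) and 5 in MPP3 cells, all higher (against 2.54%). The MPP3 values of these lists include replicate 4. The chemokine Ccl3 was the 1 gene of this list called in all 3 comparisons. It rose from 5.01 ± 1.27 CPM to 15.9 ± 1.43 in young HSCs (SD, n = 4 each, adjusted p = 0.0285), from 5.20 ± 1.76 to 16.9 ± 5.21 in middle-aged HSCs (n = 5 and 3, adjusted p = 0.00946) and from 13.2 ± 3.53 to 31.3 ± 8.09 in MPP3 cells (n = 4 each, adjusted p = 0.0283). Ebi3, a cytokine subunit, was higher (log2 fold change 0.90) and Pim1, a kinase, lower (-0.59) in M-TTPΔARE HSCs. In MPP3 cells Bcl2a1d, a BCL2 family survival gene, was 3.92 higher (SE 0.39) and Ccr7, a chemokine receptor of migrating dendritic cells, 2.02 higher (SE 0.35), beside the dendritic markers given above. The list's medians were 0.145, 0.087 and 0.39 in the 3 comparisons.

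With age 6 of these targets were higher in M-WT HSCs and 3 lower (23 over the limit, against 13.7% and 6.03% of the genes), and in MPP3 cells 4 were higher and 6 lower than in HSCs (24 over the limit, against 24.7% and 13.1%). Of the 17 receptor complex genes 7 were higher in MPP3 cells and 0 lower, among them Traf6, Adam17 and Map3k7, the TAK1 kinase (log2 fold changes of 0.48, 0.48 and 0.43). Of the 24 signalling genes 5 were higher in MPP3 cells and 3 lower, and 6 were higher with age and 0 lower, led by Tbkbp1 (0.63, SE 0.09) and Irak3 (0.48, SE 0.07). Tnfsf10, the ligand TRAIL, rose with age from 68.8 ± 2.64 to 114.4 ± 7.28 CPM (SD, n = 4 and 5, adjusted p = 0.000108). Sele, an endothelial selectin on the target list, fell with age by 2.97 on the log2 scale, and stood at 29.9 and 26.6 CPM in Y-WT HSC replicates 1 and 4 against 8.90 to 9.96 in the other pair.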

How the data were processed

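The authors sequenced mRNA, removed adapters (Trim Galore, Cutadapt), mapped the reads to mm10 by STAR and counted them per gene of a GENCODE annotation with featureCounts. The deposited values are raw read counts per gene and library. Whether strand was used and how multimapping reads were treated is not given in the sources used here. The labels' kit and the study's methods name different library kits, and the source name of the MPP3 libraries says HSC while their cell type says MPP3.

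From the counts, edgeR 4.0.16 (R 4.3.3) fitted its quasi-likelihood test for each comparison on the libraries of that comparison with TMM scaling, after keeping genes by filterByExpr (at least 10 counts and 15 in total). Calls needed an adjusted p (Benjamini-Hochberg, all genes tested) under 0.05, more than a 1.2-fold change and a mean logCPM above 1.5, limits taken from the study. Interactions were fitted on the 4 groups involved, with no fold limit. CPM values use TMM-scaled library sizes, and CPM per kb divides by the union of exons in GENCODE M21, which is not the authors' release. DESeq2 1.42.0, a likelihood ratio test, RLE scaling, no filter, other limits, a replicate block and each library left out were the alternatives. Scripts were tested on simulated data. A gene of another list and a sequence are not reported here. The members and gene lists were chosen with earlier results of these data known. Values by library are given for Tnf, Nfkb1 and each member called by genotype, for cell type and age the rule named up to 8 called members (all 9 called with age are given), and up to 3 called genes of each other list. Tnfaip3, Nfkbia, Bcl3, Nfkbib, Traf2, Icam1, Chuk, Tab2 and Ripk1 were named after their values were seen. Library totals limit precision only for Tnf, the 1 member with under 10 counts in some library.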

Additional observations from a re-analysis of the deposited data

Results flagged for a closer look

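In groups of 4 or 5 libraries, 65 pairs of gene and group were checked for a library far from the others by Dixon's criterion at the 95% level, and 3 had one. Chance gives about 1 in 20. Tnf stood at 1.74 CPM in M-WT HSC replicate 4, and the other M-WT libraries lay at 0.0508 to 0.362. Vcam1 stood at 86.0 CPM in Y-TTPΔARE HSC replicate 2, with the others at 56.7 to 61.0, and at 57.8 CPM in Y-WT MPP3 replicate 4, with the others at 11.3 to 18.5.

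Vcam1 also differed in direction. Its log2 fold change was -1.31 in middle-aged HSCs and 1.81 in young MPP3 cells, and in each case the genotypes did not overlap in CPM. The difference between these 2 effects was not tested, and the groups differ in age, cell type and library set.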

How the results depend on the processing

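In young HSCs 0 members were called under every alternative run, and for the interaction with age likewise. In middle-aged HSCs the 1 call became 4 with DESeq2, 2 with the likelihood ratio test and 3 without the filter, and 0 to 1 with a library left out. In MPP3 cells the 1 call became 3 with DESeq2, 3 with the likelihood ratio test and 2 without the filter, and 0 to 2 with a library left out. For the interaction with cell type the count of 0 became 1 (Traf1) with DESeq2, the likelihood ratio test and no filter, and 0 to 1 with a library left out. Between cell types 6 (3 higher, 3 lower) became 10 with DESeq2 (2 higher, 8 lower) and 4 to 12 with a library left out, and with age 9 became 5 to 13.

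The deviations of same-numbered libraries from their group means had r from -0.15 to 0.21 per number. Between HSCs and MPP3 cells of young WT mice r was 0.03, 0.14, 0.08 and 0.18, and the other comparisons together gave values of both signs. Whether same-numbered libraries come from the same mouse was not tested. With a replicate block the counts were 0 in young HSCs, 0 in middle-aged HSCs, 1 in MPP3 cells, 7 between cell types, 4 with age, 0 for the interaction with age and 1 for that with cell type.

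Values that turned sign were small or rested on few libraries. Nfkb1 in young HSCs ran from -0.106 to 0.006 with a library left out, positive without Y-TTPΔARE replicate 2, and in MPP3 cells from -0.047 to 0.076, negative without Y-WT replicate 1. Vcam1 in young HSCs went to 1.06 without Y-WT replicates 1 and 4, chosen after seeing the data. Tnf in middle-aged HSCs went to 1.05 with the replicate block and ran from -0.558 to 1.43 with a library left out, positive without M-WT replicate 4 (1.43) and M-TTPΔARE replicate 2 (0.32). Apart from these libraries being left out, the cause was not tested. Over all genes, the calls in young HSCs went from 3 higher and 3 lower to 165 and 139 with DESeq2.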
